A study of Homo sapiens with 6 samples.

Results

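RNA sequencing of cells labelled as a liver cancer line was examined for 7 genes, namely the keratin genes KRT7, KRT8, KRT17, KRT18, KRT19 and KRT80 and the epithelial surface gene EPCAM. They were found by symbol, and all 7 were present among the 27605 genes of the deposited expression table. The libraries came from cells labelled HepG2, a human hepatoma line that was grown in DMEM with fetal bovine serum. The control group (n = 3 libraries) is named shNC, for a negative control hairpin, and its genotype is given as WT. The knockdown cells (shARHGEF2, n = 3 libraries) were infected with lentivirus expressing a short hairpin RNA against ARHGEF2, which encodes a guanine nucleotide exchange factor of the small GTPase RhoA. The sources used here do not give the number of hairpins or clones, nor whether the libraries of a group came from separate cultures, so that p-values measure only the spread between these libraries, which may be technical. The values were FPKM, that is, fragments per kilobase of transcript scaled to the number of mapped fragments. Since they are scaled by transcript length, levels of different genes can be compared within a library.

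Keratins are the intermediate filament proteins of epithelial cells. A filament is built from pairs of an acidic type I keratin (KRT17, KRT18 and KRT19 here) and a basic type II keratin (KRT7, KRT8 and KRT80 here). KRT8 and KRT18 form the basic pair of simple epithelia and are the only keratins of the normal adult hepatocyte, whereas KRT7 and KRT19 mark bile duct cells in the liver. KRT17 belongs to basal and stressed epithelia, and KRT80 is a type II keratin associated with cell junctions. EPCAM encodes a membrane glycoprotein of simple epithelia and many carcinomas and is used to select tumor cells of epithelial origin.

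The keratins of a type are close in sequence, which decides how well their reads can be told apart. KRT17 and its neighbors KRT16 and KRT14 lie on the minus strand of chromosome 17. A stretch of 150 coding bases, the length of a sequencing read, is shown because it is the part of KRT17 most like KRT16. It lies in exon 6 of 8 in all 3 transcripts of GENCODE 29, at chr17:41620681-41620830 for KRT17, chr17:41610353-41610502 for KRT16 and chr17:41583257-41583406 for KRT14 (GRCh38). Capitals mark the 14 positions at which the 3 genes differ.
KRT17: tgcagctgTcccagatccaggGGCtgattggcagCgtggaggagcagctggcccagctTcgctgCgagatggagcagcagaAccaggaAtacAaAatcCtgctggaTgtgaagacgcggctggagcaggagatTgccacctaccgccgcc
KRT16: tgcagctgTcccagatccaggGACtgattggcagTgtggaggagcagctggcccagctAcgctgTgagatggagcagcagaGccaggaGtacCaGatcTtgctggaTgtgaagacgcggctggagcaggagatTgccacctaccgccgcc
KRT14: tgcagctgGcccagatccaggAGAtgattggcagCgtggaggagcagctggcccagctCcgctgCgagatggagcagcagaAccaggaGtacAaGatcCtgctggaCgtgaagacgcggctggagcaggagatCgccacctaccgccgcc
Here KRT16 differed from KRT17 at 9 positions and KRT14 at 8. For each of the 6 keratin members, 0 windows of 150 bases of the transcript with the longest coding sequence occurred unchanged in a transcript of another keratin gene or keratin pseudogene. Windows of 50 bases were shared more often, with 41.3% of them for KRT8, 31.8% for KRT18 and 17.4% for KRT17, but only 1.79% for KRT19, 0.411% for KRT7 and 0.42% for KRT80. The 25 listed pseudogenes named for KRT8 summed to between 7.26 and 9.24 FPKM in a library, the 20 named for KRT18 to between 0.696 and 1.22 FPKM and the 4 named for KRT17 to between 0.474 and 1.01 FPKM. The highest was KRT8P3, with at most 4.03 FPKM. No pseudogene of KRT19 was listed. A further limit concerns KRT8 and KRT18, which stand on opposite strands of chromosome 12 and overlap by 1084 bp of their annotated spans. The library kit marked the strand, but the strand setting of the counting was not given in the sources used here. KRT7 also overlaps another keratin gene, KRT86 (chr12:52249300-52309163), in its annotated span. Both stand on the plus strand, where strand marking does not separate them.

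The targeted gene was lower in each knockdown library. ARHGEF2 had 13.0, 14.4 and 13.9 FPKM in shNC replicates 1 to 3 and 4.25, 4.004 and 4.82 FPKM in the shARHGEF2 replicates. The groups did not overlap, with a log2 fold change of -1.47 ± 0.11 (standard error) and an adjusted p of 0.00244 in the limma fit of all genes tested. With no filter on low values the fold change was the same and the adjusted p was 0.0701 in limma. The steps between low FPKM values gave an estimated depth of 20210000 to 23425000 read pairs for the 6 libraries. The deviation of a library from the mean of all 6 followed the GC content of the genes to a differing degree, with Spearman's rho across 12231 genes from -0.465 in shNC replicate 2 to 0.57 in shARHGEF2 replicate 1.

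The levels of the 7 genes were far apart. KRT7 was the most abundant keratin, and its rank among all genes of the table lay between 28 and 39 in the 6 libraries. KRT17 ranked between 45 and 71, KRT18 between 177 and 277, KRT8 between 207 and 394, KRT19 between 584 and 703, and KRT80 between 673 and 884. EPCAM, in contrast, ranked between 18110 and 20572. KRT7 stood above KRT17 in every library, and KRT17 stood above both KRT18 and KRT8 in every library. The order of KRT18 and KRT8 was not fixed, since KRT8 was the higher gene in shNC replicates 1 and 2 and KRT18 in the other 4 libraries. KRT19 was above KRT80 in all libraries but shNC replicate 3. The 6 keratins together made up between 97.5% and 97.6% of the summed FPKM of the 28 keratin genes listed, and all keratins together made up between 0.573% and 0.668% of the summed FPKM of all genes.

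**Figure D1:**
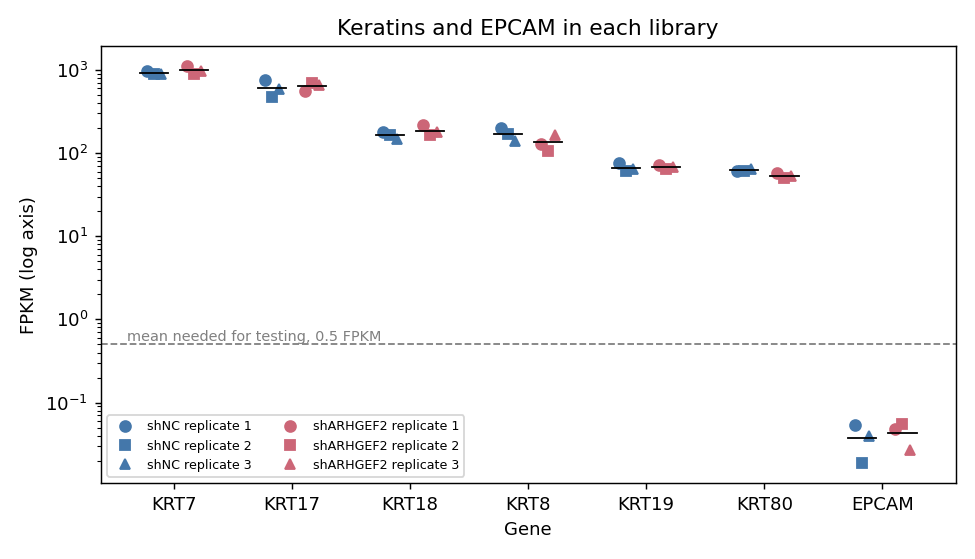
FPKM of the 6 keratins and EPCAM (log axis) in each of the 6 libraries, blue for shNC and red for shARHGEF2, with a symbol for each replicate and a black line at the group mean. The 6 keratins lie between 50.0 and 1124 FPKM in every library, whereas EPCAM does not exceed 0.0547 FPKM and lies below the dashed line at 0.5 FPKM, the mean needed for testing.

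EPCAM (ENSG00000119888, chr2:47345158-47387601 on GRCh38, plus strand) was near the limit of detection. It had 0.0536, 0.0186 and 0.0396 FPKM in the shNC libraries and 0.0482, 0.0547 and 0.0269 FPKM in the shARHGEF2 libraries. These values were low in all 6 libraries, and the groups overlapped. On its listed transcript of 1724 nt, a single read pair is worth between 0.0248 and 0.0287 FPKM, so that the values correspond to about 0.719 to 2.16 read pairs in a library. A difference between the groups was not detectable at this depth, and EPCAM was left out of the test for its low mean. When no filter was set, its log2 fold change was 0.0084 (95% interval -0.04 to 0.06, adjusted p = 0.895 in limma), a value held near 0 by the pseudocount of 1.

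The genes were grouped as marks of epithelial identity, and the keratins were abundant while EPCAM was near 0. The 9 markers of simple epithelium were the 7 members with CDH1 and MUC1 added, so their count is not separate from the members. Of these 9, 7 had a mean of at least 0.5 FPKM, and EPCAM and CDH1 did not. CDH1, the cadherin of epithelial junctions, reached at most 0.043 FPKM, whereas the mucin MUC1 had 4.98 to 7.40 FPKM. Markers of other cell types were measured beside them. VIM, the intermediate filament gene of mesenchymal cells, had 104.5 to 188.5 FPKM, FN1 had 37.5 to 51.0 and CDH2 had 4.98 to 9.84 FPKM, and 6 of 9 mesenchymal markers had a mean of at least 0.5 FPKM. COL1A2 reached at most 0.0453 FPKM. The sum of the 9 mesenchymal markers lay between 175.8 and 256.9 FPKM in shNC and between 171.5 and 250.5 in shARHGEF2 libraries, and its part in the keratin values was not tested. Of 7 biliary markers, KRT7, KRT19 and SOX9 reached this mean, with 2.55 to 3.74 FPKM for SOX9, while SPP1 and CFTR were at or near 0. Of 7 genes of basal or squamous epithelium, KRT16 and KRT14 reached it, and TP63, KRT5 and KRT6A did not. KRT17, which also belongs to basal epithelia, was listed under simple epithelium instead and had 477 to 757 FPKM. In bulk RNA, a smaller share of cells expressing a gene and less RNA of that gene per cell cannot be told apart.

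HepG2 is known for keeping the secretory program of hepatocytes. Here 8 of 18 hepatocyte genes, ALB, APOB, TTR and TF among them, had no row in the table, and VTN, at 5.51 to 6.60 FPKM, was the only gene of the list to reach a mean of 0.5 FPKM. Its values were higher in each knockdown library, as in 11.3% of all genes tested (adjusted p = 0.481 in limma). RBP4 reached 0.907 FPKM, and the other 8 listed genes, which include AFP, SERPINA1 and HNF4A, did not exceed 0.248 FPKM in any library. The defining markers of hepatocytes were thus absent or near 0 in libraries of both groups, against the label of the line. Markers of leukocytes did not reach a mean of 0.5 FPKM in 4 of 4 listed genes. Of 4 listed endothelial genes, PECAM1 did, at 0.539 to 0.854 FPKM.

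**Figure D2:**
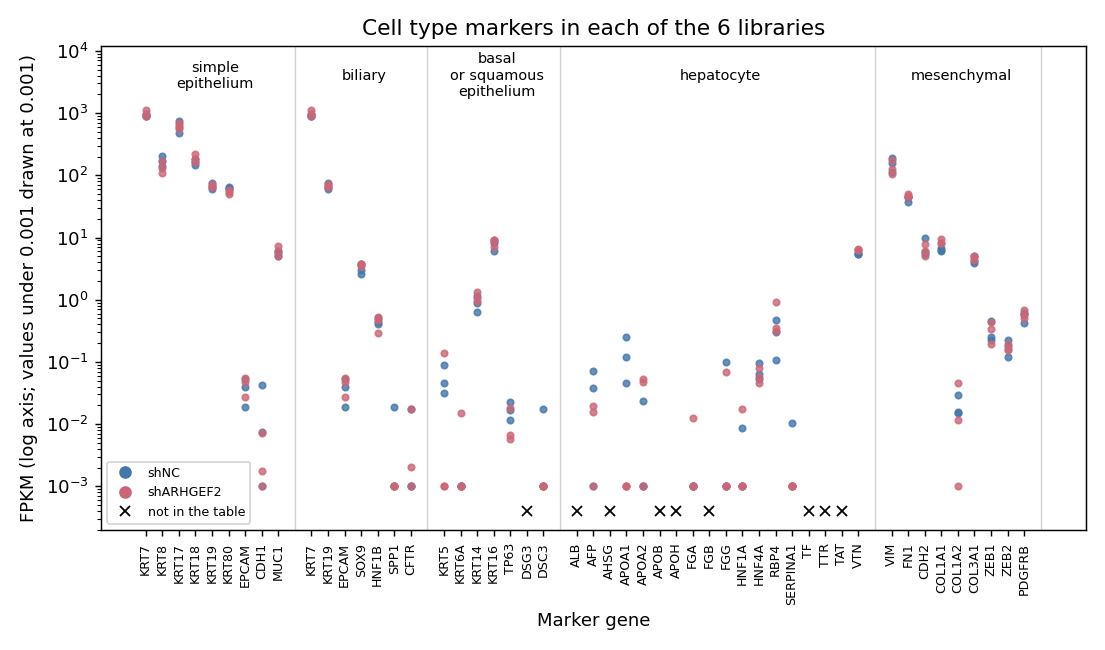
FPKM (log axis) of the markers of simple epithelium, bile duct, basal or squamous epithelium, hepatocytes and mesenchymal cells, with a point for each of the 6 libraries, blue for shNC and red for shARHGEF2. Values under 0.001 are drawn at 0.001, and crosses mark genes with no row in the table, 8 of them hepatocyte genes. The keratins and VIM stand at the top, and EPCAM, CDH1 and most hepatocyte genes lie under 0.5 FPKM.

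The next question was whether the knockdown of ARHGEF2 altered these genes. Of the 6 keratins tested, 0 passed an adjusted p of 0.05 in limma, where 34 of 12291 genes tested (0.277%) did. By direction, 0.195% of all genes tested were called higher and 0.0814% lower in the knockdown. At an unadjusted p under 0.05 the count was 1 of 6, which was KRT80 and lower, against 13.7% of all genes tested, 8.1% higher and 5.55% lower. The median log2 fold change was 0.06 over the 6 keratins and -0.0016 over all genes tested. Of the 6, 4 had a fold change above 0 and 2 below.

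KRT80 (ENSG00000167767, chr12:52168996-52192000, minus strand) was the only one of these 6 keratins whose groups did not overlap. It had 61.9, 60.2 and 65.3 FPKM in the shNC libraries and 57.4, 50.0 and 53.2 FPKM in the shARHGEF2 libraries. Each knockdown library was below each control library (p = 0.1 by the two-sided exact permutation test, which cannot go lower with 3 libraries a group), as in 9.17% of all genes tested. The means were 62.5 ± 2.57 FPKM (SD, n = 3) and 53.6 ± 3.71 FPKM (SD, n = 3), a ratio of 0.858. Its log2 fold change was -0.22 (95% interval -0.42 to -0.02, adjusted p = 0.330 in limma), so the difference did not pass once all genes were taken into account.

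KRT8 (ENSG00000170421, chr12:52897187-52949954, minus strand), the type II keratin of simple epithelia, had the largest fitted difference among the 6. It had 202, 171 and 142 FPKM in the shNC libraries and 130.1, 107 and 167 FPKM in the shARHGEF2 libraries. Replicate 3 of the knockdown lay within the control range, and the other 2 knockdown libraries lay below it. The means were 172 ± 30.03 FPKM (SD, n = 3) and 135 ± 30.02 FPKM (SD, n = 3), and the log2 fold change was -0.36 (95% interval -0.77 to 0.06, adjusted p = 0.438 in limma). It was -0.21 without shARHGEF2 replicate 2, -0.23 without shNC replicate 1 and -0.52 without shARHGEF2 replicate 3. Adding the pseudogenes gave -0.34.

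KRT18 (ENSG00000111057, chr12:52948871-52952901, plus strand), the type I partner of KRT8, had 180.4, 164 and 148 FPKM in the shNC libraries and 216, 164 and 179.5 FPKM in the shARHGEF2 libraries. The groups overlapped, with replicate 1 of the knockdown the highest. The log2 fold change was 0.18 (95% interval -0.10 to 0.45, adjusted p = 0.570 in limma). It was 0.07 without shARHGEF2 replicate 1, 0.11 without shNC replicate 3 and 0.27 without shARHGEF2 replicate 2. The ratio of KRT8 to KRT18 within a library was 1.12, 1.04 and 0.958 in shNC and 0.601, 0.654 and 0.929 in shARHGEF2. All 3 knockdown ratios were below the control ratios, but shARHGEF2 replicate 3 lay next to shNC replicate 3. For single genes, 20.5% of all those tested did not overlap between the groups in either direction. On the log2 scale the ratio differed by -0.54 between the groups, by -0.41 without shARHGEF2 replicate 1 and by -0.73 without shARHGEF2 replicate 3, where the pooled SD within groups was 0.249. As a score over members chosen with earlier results known, the ratio was given no test.

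**Figure D3:**
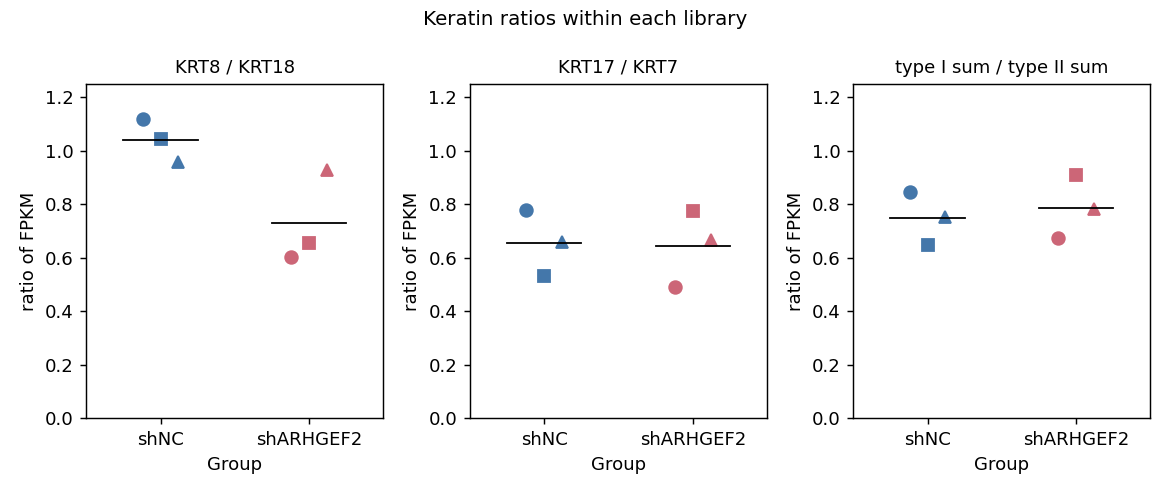
Ratios of FPKM within each library, for KRT8 to KRT18, KRT17 to KRT7 and the sum of all type I to the sum of all type II keratins, by group, with a point for each library (circle, square and triangle for replicates 1 to 3) and a line at the mean. The KRT8 to KRT18 ratio has a mean of 1.04 in shNC and 0.728 in shARHGEF2, while the other ratios overlap between the groups.

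KRT7 (ENSG00000135480, chr12:52232520-52252186, plus strand), a type II keratin of ductal epithelia, had 972, 898 and 899 FPKM in the shNC libraries and 1124, 907 and 983 FPKM in the shARHGEF2 libraries. The groups overlapped, and the log2 fold change was 0.12 (95% interval -0.11 to 0.34, adjusted p = 0.658 in limma). It was 0.03 without shARHGEF2 replicate 1 and 0.19 without shARHGEF2 replicate 2. KRT7-AS, a noncoding RNA from the strand opposite KRT7, had 5.07 to 7.09 FPKM with overlapping groups (adjusted p = 0.793 in limma).

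KRT17 (ENSG00000128422, chr17:41619441-41624842, minus strand) spread widely among the control libraries. It had 757, 477 and 591 FPKM in shNC and 553, 702 and 653 FPKM in shARHGEF2 libraries. The control libraries held both the highest and the lowest value, with an SD of 141 FPKM (n = 3) around a mean of 608 FPKM. The log2 fold change was 0.08 (95% interval -0.30 to 0.47, adjusted p = 0.882 in limma), and it turned to -0.08 without shNC replicate 2. The stretch shown above separates KRT17 from KRT16 and KRT14, whose levels were far lower, at 6.03 to 9.25 FPKM for KRT16 and 0.641 to 1.32 FPKM for KRT14.

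KRT19 (ENSG00000171345, chr17:41523617-41528308, minus strand), a type I keratin of ductal epithelia, had 75.7, 60.4 and 64.3 FPKM in shNC and 73.0, 63.9 and 68.4 FPKM in shARHGEF2 libraries. All knockdown values lay within the control range. The log2 fold change was 0.04 (95% interval -0.20 to 0.28, adjusted p = 0.919 in limma). Its sign depended on single libraries, with -0.03 without shNC replicate 2 and -0.0078 without shARHGEF2 replicate 1.

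**Figure D4:**
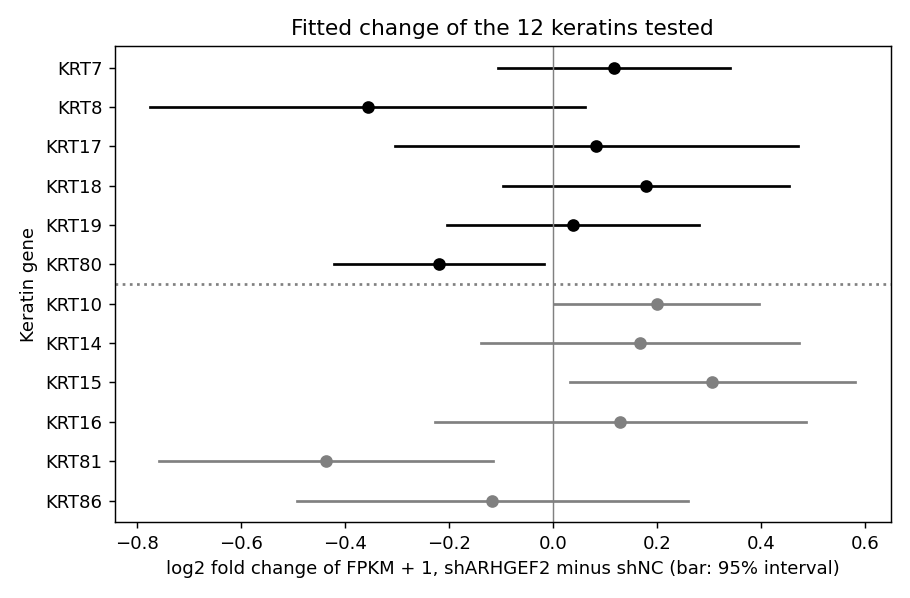
Fitted log2 fold change of FPKM + 1 (shARHGEF2 minus shNC) with its 95% interval for the 6 keratin members (black) and the 6 other keratins tested (gray). The interval of KRT80 ends just below 0, from -0.42 to -0.02, those of the other 5 members include 0, and KRT81 has the lowest value, -0.44.

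The summed level of the 28 listed keratins overlapped between the groups. It was 2304, 1877 and 1958 FPKM in the shNC libraries and 2208, 2044 and 2157 FPKM in the shARHGEF2 libraries, and the knockdown values lay within the control range. The sum of the type I keratins divided by that of the type II keratins was 0.748 ± 0.099 for shNC and 0.787 ± 0.119 for shARHGEF2 (SD, n = 3 each), and the ratio of KRT17 to KRT7 was 0.656 ± 0.124 and 0.644 ± 0.142 (SD, n = 3 each). KRT8 contributed 8.38 ± 0.997% of the keratin sum in shNC and 6.29 ± 1.29% in shARHGEF2 (SD, n = 3 each), and KRT80 3.08 ± 0.344% and 2.51 ± 0.0834%.

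Members of the group also differed in how they moved from library to library. Over the 6 libraries, KRT7 and KRT18 varied together (Pearson's r = 0.959, Spearman's rho = 0.886 on log2(FPKM + 1), and r = 0.826 without the 2 libraries in which KRT7 was farthest from its median). KRT8 and KRT18 did not (r = 0.025, rho = 0.029, and r = -0.425 without the 2 libraries in which KRT8 was farthest from its median). These points share library depth and base composition and come from both groups, and the values are a description. Among the 3622 genes whose mean was 10 FPKM or more, DHRS3 (r = 0.989) and FXYD5 (r = 0.985) were most like KRT7, ENSA (r = 0.986) was most like KRT8, and S100A10 (r = 0.985) and GABARAP (r = 0.980) were most like KRT18. For KRT17 they were ZNRD1 (r = 0.942) and PAXX (r = 0.933), for KRT19 TLE5 and GPR108 (r = 0.992 each), and for KRT80 FBRSL1 (r = 0.994) and TADA3 (r = 0.99). Each of these genes was the highest or second highest of the 3622 over only 6 libraries.

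Among the 22 other keratin genes listed, 6 were tested and 0 were called (adjusted p in limma), while 3 of the 6 had an unadjusted p under 0.05 (13.7% of all genes tested) and 3 did not overlap between the groups (20.5% of all genes tested). KRT81, a type II hair keratin, had 10.1, 8.13 and 8.28 FPKM in shNC and 7.14, 5.12 and 6.59 FPKM in shARHGEF2 libraries. Its groups did not overlap, and the log2 fold change was -0.44 (95% interval -0.76 to -0.11, adjusted p = 0.235 in limma). It shares 25.6% of its 150-base windows with other keratin transcripts, and KRT86, a close copy, had 1.48 to 2.49 FPKM with overlapping groups, so the split of reads between the 2 genes is uncertain. KRT10, a type I keratin of differentiated epidermis, had 30.5, 28.0 and 27.5 FPKM in shNC and 32.8, 33.6 and 32.6 FPKM in shARHGEF2 libraries, all knockdown values above the controls (log2 fold change 0.20, adjusted p = 0.363 in limma). KRT15 was also higher in each knockdown library, at 0.338 to 0.615 against 0.633 to 0.891 FPKM (adjusted p = 0.321 in limma). KRT14 and KRT16 overlapped between the groups (adjusted p = 0.641 and 0.787 in limma). The 16 keratins that were not tested did not exceed 0.645 FPKM in any library.

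Keratin filaments are tied to desmosomes by plakins and armadillo proteins. Of 20 such linker genes, 12 were tested and 0 were called in limma, 0 at an unadjusted p under 0.05, with a median log2 fold change of 0.05. JUP (plakoglobin) had 140.6 to 175.2 FPKM, PLEC (plectin) 64.7 to 90.9 and PERP 36.2 to 48.4. The smallest p belonged to PLEC and EPPK1 (log2 fold change 0.18 each, adjusted p = 0.594 and 0.609 in limma). With a library left out, the fold change ran from 0.08 (without shNC replicate 1) to 0.32 (without shNC replicate 3) for PLEC and from 0.11 (without shARHGEF2 replicate 1) to 0.29 (without shARHGEF2 replicate 2) for EPPK1. DSC2 and DSC3, both desmocollins, did not reach a mean of 0.5 FPKM, and DSG2 did. Among 28 modifiers and other partners of keratins, other intermediate filament genes included, 23 were tested and 0 were called in limma, and 3 had an unadjusted p under 0.05, near the 13.7% of all genes tested. NES encodes the intermediate filament protein nestin. It had 10.4, 11.2 and 11.3 FPKM in shNC and 17.4, 15.8 and 17.4 FPKM in shARHGEF2 libraries. Its groups did not overlap, with shARHGEF2 higher, as in 11.3% of all genes tested. The log2 fold change of 0.58 ± 0.10 (standard error) fell just short of the threshold (adjusted p = 0.054 in limma), and the adjusted p in limma ran from 0.0454 under a stricter filter on low values to 0.305 with no filter. SFN, a 14-3-3 protein that binds keratins, had 249.6, 207 and 228 FPKM in shNC and 305, 274 and 282 FPKM in shARHGEF2 libraries (log2 fold change 0.34, adjusted p = 0.184 in limma). HSPB1, a small heat shock protein, had 358 to 452 FPKM, and VIM overlapped between the groups (adjusted p = 0.823 in limma).

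Of 31 genes for EPCAM partners and epithelial surface proteins, 25 were tested and 0 were called in limma, and 3 had an unadjusted p under 0.05 (13.7% of all genes tested), with a median log2 fold change of 0.10. The groups did not overlap in 6 of the 25 (20.5% of all genes tested). ITGB4 (36.6 to 59.8 FPKM), CD24 (28.6 to 45.6 FPKM) and CD9 (26.4 to 35.1 FPKM) were the most abundant. SPINT1, an inhibitor of membrane serine proteases, had 0.479, 0.828 and 1.21 FPKM in shNC and 1.80, 1.65 and 1.43 FPKM in shARHGEF2 libraries (log2 fold change 0.53, adjusted p = 0.200 in limma, and 0.95 on the log2 scale with a pseudocount of 0.1). CD9, a tetraspanin, was higher in each knockdown library (log2 fold change 0.27, adjusted p = 0.249 in limma). CLDN7, the claudin that binds EPCAM, had 12.9 to 16.3 FPKM with overlapping groups.

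The transcription and splicing factors of epithelia were unevenly present. Of 25, 11 were tested and 12 were listed with a mean under 0.5 FPKM. KLF5 (22.8 to 30.2 FPKM), ELF3 (17.2 to 25.2 FPKM) and TFAP2A (9.70 to 14.7 FPKM) led, while GRHL2 reached at most 0.011 FPKM, ESRP1 0.0542 and RAB25, a small GTPase of epithelial cells kept on the same list, 0.0295. ESRP2, a splicing factor of the same family as ESRP1, had 4.89 to 5.69 FPKM. In limma 0 of the 11 were called and 3 had an unadjusted p under 0.05, against 13.7% of all genes tested. ELF3 was higher in each knockdown library, as were 11.3% of all genes tested (log2 fold change 0.31, adjusted p = 0.283 in limma). Its relative EHF was lower (log2 fold change -0.26, adjusted p = 0.330 in limma) at 0.408 to 0.894 FPKM. At such levels the pseudocount of 1 shrinks the fold change, which was -0.59 for EHF with a pseudocount of 0.1. For COL1A1, among the mesenchymal markers, the log2 difference was 0.39 with an adjusted p of 0.188 in limma, and 0 of 6 tested mesenchymal genes were called in limma and 1 of the 6 passed an unadjusted p under 0.05.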

How the data were processed

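Poly(A) RNA of 6 libraries was sequenced as paired ends on strand-marking libraries with molecular identifiers. The submitters' processing notes name cutadapt 1.9, HISAT2 2.0.4, UMI-tools, StringTie 1.3.4d and the build hg19, without roles. The authors deposited FPKM per gene and library, and beside them the ratio (fold change), log2 ratio, p-value and q-value of their own comparison, which were not used. Members and gene lists were chosen with earlier results of these data known. Genes averaging 0.5 FPKM or more across the 6 libraries were fitted on log2(FPKM + 1) with limma 3.58.1 (trended, robust variances, R 4.3.3, statmod 1.5.0), adjusted by Benjamini-Hochberg over all genes tested and called under 0.05. The fit was tested on simulated data. Named genes were the members, the tested other keratins, and per list the called genes, the 3 of highest mean and the 2 of smallest p, besides all hepatocyte genes of the list, the pseudogene sums with the highest pseudogene, ARHGEF2, and per member the 2 most correlated genes. CLDN7, CDH1, CDH2, MUC1, COL1A2, SPP1, CFTR, TP63, KRT5, KRT6A, KRT7-AS, DSC2, DSC3, DSG2, GRHL2, ESRP1, ESRP2 and RAB25 were named beside this rule, after their values were seen. A gene that the rule for likeness would name is not reported here. Positions, lengths, GC content and sequences came from GENCODE 29 (GRCh38), which held 94.7% of the listed transcripts. The table carries no coordinates. Depth was estimated as the number of read pairs that put low values nearest to whole pairs, and no interval was drawn from it. At that depth, 37.0% to 38.7% of low values lay within 0.1 of a whole read pair. The depth was fitted to these same values, so the 20% by chance, which holds for a fixed depth, is not a like comparison. Exact permutation tests used SciPy 1.17.1. Alternatives were a replicate block, another pseudocount, filters, scalings, variances, pseudogenes added and each library left out. Removal of a GC content trend (loess, span 0.3) was added after seeing the data.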

Additional observations from a re-analysis of the deposited data

How the results depend on the processing

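No keratin member passed the threshold in limma under any alternative in which it was tested, with adjusted p from 0.131 (KRT80 with the GC content trend removed) to 0.993 (KRT17 without shARHGEF2 replicate 2). The signs of KRT7, KRT8, KRT18 and KRT80 held under each alternative, while KRT17 turned to -0.0798 without shNC replicate 2. KRT19 turned to -0.0291 without shNC replicate 2, to -0.0078 without shARHGEF2 replicate 1 and to -0.0037 with the GC content trend removed, and KRT16 to -0.0114 without shNC replicate 2. With each library left out, the log2 fold change ranged from -0.08 to 0.25 for KRT17 from -0.03 to 0.13 for KRT19 and from -0.0114 to 0.2418 for KRT16, and the log2 ratio of KRT8 to KRT18 differed by -0.73 to -0.41. The number of genes called over the table was 34, and it was 54 with a filter of 1 FPKM in 3 or more libraries, 19 after quantile normalization, 7 without trended or robust variances, 1 with no filter beyond a value above 0 and 6 to 102 with a library left out, the highest without shNC replicate 3. With the replicate number as a block it was 0 (1976 at an unadjusted p under 0.05), and ARHGEF2 kept its log2 fold change of -1.47 with an adjusted p of 0.0716 (0.0701 with no filter). Whether the numbers pair the libraries was not settled by the correlations of deviations, which were 0.184, 0.159 and -0.105. By these correlations, replicates 1 and 2 of both groups correlated best with their own number, and replicate 3 of both with number 2. These 4 of 6 libraries count each matching pair from both sides, so they are not separate checks. NES passed under 2 alternatives (adjusted p = 0.0454 with the stricter filter and 0.0475 with the GC trend removed). Depth limits EPCAM, at about 1 or 2 read pairs a library.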
